A study of Rattus norvegicus with 2 samples.

Results

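The voltage-gated potassium channel genes described here are 5 Kv1 alpha subunit genes (Kcna1, Kcna2, Kcna3, Kcna5 and Kcna6), the 2 Kv beta subunit genes Kcnab1 and Kcnab2, and the Kv3 alpha subunit gene Kcnc1. These 8 genes were taken by symbol from the 25395 genes with a unique name in the mean expression of the sympathetic neuron cluster. No Kv2 gene is reported, so the data cover the Kv1 and Kv3 families only. Single cells from dissociated stellate ganglia were sequenced with droplet 3′ chemistry, in 1 library for the normotensive Wistar strain and 1 for spontaneously hypertensive rats (SHRs) before their hypertension sets in. Both strains were male and aged 5 to 6 weeks, no treatment is named, and the number of animals behind each library is not given in the sources used here. The SHR is an inbred strain whose hypertension has a genetic basis, and the Wistar strain differs from it at many loci besides those for blood pressure.

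Kv alpha subunits assemble as tetramers around a potassium-selective pore that opens on depolarization. Kv1 channels open at low voltages and limit repetitive firing, often near the axon initial segment and beside nodes of Ranvier, whereas Kv3 channels open at high voltages and close quickly, which shortens the action potential. Kv beta subunits are cytoplasmic proteins of the aldo-keto reductase fold that bind the Kv1 tetramer, promote its transport to the membrane and, for Kvβ1, can add fast inactivation to an otherwise sustained current.

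The promoters of 5 of the genes are shown, those of the 3 most abundant (Kcnab1, Kcna6 and Kcna3) and those of Kcna2 and Kcnc1, whose means differed most between the strains among the genes with a promoter entry and a mean above 0 in both libraries. Each sequence is the 250 bases before the annotated transcript start in RefSeq on the GRCr8 assembly, written 5′ to 3′ on the strand of the gene, with CG dinucleotides in capitals. The Kcna2 promoter lies at chr2:197393280-197393529 on the + strand, that of Kcna3 at chr2:197320074-197320323 on the + strand and that of Kcnc1 at chr1:106038997-106039246 on the + strand. The Kcna6 promoter lies at chr4:161262353-161262602 on the - strand, and that of Kcnab1 at chr2:151614301-151614550 on the + strand.
Kcna2: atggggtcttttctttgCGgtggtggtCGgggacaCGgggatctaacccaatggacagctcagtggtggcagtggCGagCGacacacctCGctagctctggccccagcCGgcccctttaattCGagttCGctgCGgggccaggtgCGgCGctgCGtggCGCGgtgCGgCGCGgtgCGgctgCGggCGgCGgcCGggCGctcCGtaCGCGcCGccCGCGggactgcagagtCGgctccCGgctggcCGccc
Kcna3: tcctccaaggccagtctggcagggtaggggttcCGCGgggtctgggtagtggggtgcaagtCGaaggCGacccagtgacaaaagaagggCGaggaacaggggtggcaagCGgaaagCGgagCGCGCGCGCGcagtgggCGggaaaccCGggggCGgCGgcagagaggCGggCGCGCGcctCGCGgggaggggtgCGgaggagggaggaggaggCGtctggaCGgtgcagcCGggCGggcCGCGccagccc
Kcnc1: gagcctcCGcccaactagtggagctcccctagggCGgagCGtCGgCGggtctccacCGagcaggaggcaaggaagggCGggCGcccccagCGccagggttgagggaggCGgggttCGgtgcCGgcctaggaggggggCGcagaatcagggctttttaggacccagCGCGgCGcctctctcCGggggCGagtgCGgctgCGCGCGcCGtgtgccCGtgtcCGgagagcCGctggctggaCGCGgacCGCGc
Kcna6: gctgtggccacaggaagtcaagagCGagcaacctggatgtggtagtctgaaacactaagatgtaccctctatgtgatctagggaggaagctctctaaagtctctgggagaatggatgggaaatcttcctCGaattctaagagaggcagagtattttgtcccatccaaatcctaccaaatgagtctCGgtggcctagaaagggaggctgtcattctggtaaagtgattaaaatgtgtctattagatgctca
Kcnab1: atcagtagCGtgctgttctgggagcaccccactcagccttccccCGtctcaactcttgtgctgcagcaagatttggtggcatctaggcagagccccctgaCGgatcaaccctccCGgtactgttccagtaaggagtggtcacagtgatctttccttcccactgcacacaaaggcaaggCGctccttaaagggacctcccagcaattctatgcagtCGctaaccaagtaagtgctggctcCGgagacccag

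Of the 8 genes, 7 had an entry in the RefSeq promoter table. The Kcna2, Kcna3 and Kcnc1 windows hold 33, 29 and 30 CG dinucleotides, against a median of 5 over 33469 promoter windows of the same length, and their GC content is 72.4%, 73.6% and 74.4%. Each of these windows carries the GC box letters GGGCGG on either strand 3 times, and 30.5% of all windows carry them at least once. The Kcna6 window has 3 CG dinucleotides and a GC content of 45.6%, and the Kcnab1 window has 7 and 56.0%, both without a GC box match. The Kcnab2 promoter resembles the first set in having 24 CG dinucleotides and a GC content of 65.2%, but has no GC box match, and the Kcna5 promoter has 3 CG dinucleotides and a GC content of 54.8%. None of the 7 windows holds TATAAA on either strand, which 12.9% of all windows do. These matches describe letters in a window of 250 bases and not binding.

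The values are means over neurons, expressed per 10000 counts of a cell, and are called the mean per 10000 below. They were read from the 3′ ends of transcripts and are not divided by length, so the order of genes within a library is an order of counted transcript ends. With 1 library per strain there is no replicate spread, no error and no test for any strain difference, and no 2 neighbours in the order of levels can be told apart by their spread. The depth is unknown, because neither the number of neurons nor their counts are in the values. The Wistar library had 16000 genes above 0 and the SHR library 14645. In a mean over a cluster, fewer neurons with a transcript and fewer transcripts per neuron cannot be told apart.

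Kcnab1, encoding Kvβ1, was the most abundant of the 8 transcripts, followed by the alpha subunit genes Kcna6 (Kv1.6) and Kcna3 (Kv1.3). Together these 3 genes made up 91.1% of the summed level of the 8 genes in Wistar and 95.7% in SHR. The order in Wistar was Kcnab1, Kcna6, Kcna3, Kcna2, Kcnab2, Kcna1, Kcnc1 and Kcna5, and in SHR it differed only in that Kcnab2 stood above Kcna2. All 8 genes were above 0 in Wistar and 7 in SHR. An average over both libraries of at least 0.1 per 10000 was reached by 3 of the 8 genes, and another 4 lay between 0.001 and 0.1 per 10000.

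**Figure D1:**
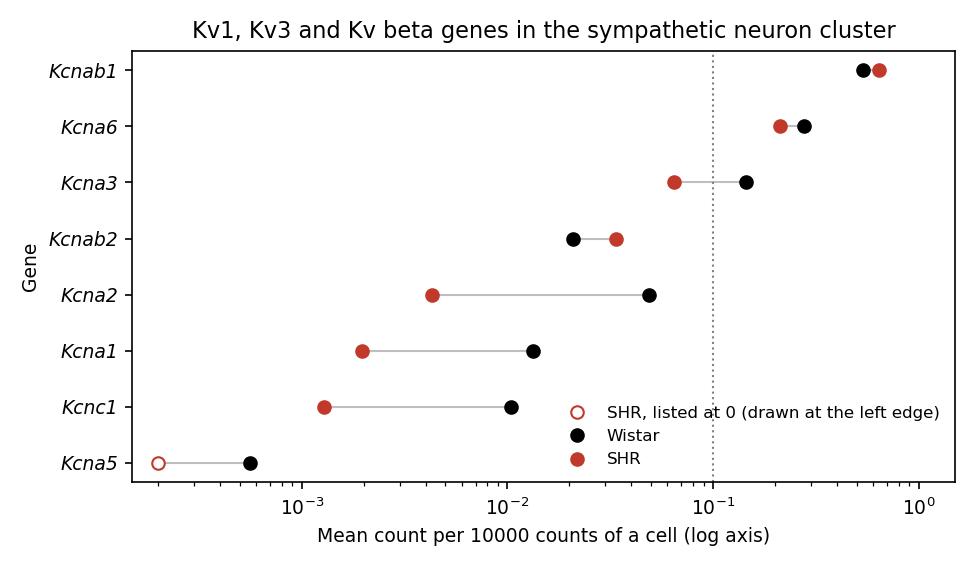
Mean count per 10000 counts of a cell (log axis) of each of the 8 genes in the Wistar (black) and SHR (red) sympathetic neuron cluster, 1 library per strain and so without error bars. The dotted line marks 0.1 per 10000, the open circle marks Kcna5, listed at 0 in SHR, and the Kv beta genes Kcnab1 and Kcnab2 are the only ones of the 8 with the SHR point to the right.

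All 5 Kv1 alpha subunit genes had lower means in the SHR neurons, a direction that turned for Kcna1 and Kcna5 only when the median log2 difference of all genes was set to 0. Kcna6, which encodes a Kv1 subunit found in many neurons, averaged 0.276 per 10000 in the Wistar neurons and 0.211 in the SHR neurons, 23.7% lower, with a log2 difference (Wistar subtracted from SHR, after adding 1 to each mean) of -0.08. The gene ranked 5198 among all genes in Wistar and 5214 in SHR, so its place in the order of transcripts was nearly the same. Kcna3, best known as the Kv1 channel of lymphocytes and also present in neurons, averaged 0.145 per 10000 in the Wistar neurons and 0.0646 in the SHR neurons, 55.5% lower, with a log2 difference of -0.11. The ratio of the SHR to the Wistar mean was thus 0.763 for Kcna6 and 0.445 for Kcna3. Over the 7621 genes with an average of at least 0.1 per 10000 the median ratio was 0.863, with 37.6% of them at a lower ratio than Kcna6 and 7.33% at a lower ratio than Kcna3.

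Kcna1 and Kcna2 encode Kv1.1 and Kv1.2, the subunits that typically co-assemble in axons. Kcna2 averaged 0.0490 per 10000 in the Wistar neurons and 0.00430 in the SHR neurons, 91.2% lower. Kcna1 averaged 0.0133 per 10000 in the Wistar neurons and 0.00196 in the SHR neurons, 85.3% lower. The corresponding log2 differences were only -0.06 and -0.02, since the added 1 is large beside such means. Kcna5, encoding Kv1.5, a channel of cardiac and vascular muscle, stood at 0.000560 per 10000 in the Wistar neurons and was listed at 0 for SHR, the lowest level of the 8 genes. Kcna4, the A-type member of the Kv1 family and not one of the 8 genes, was likewise lower in the SHR neurons, with 0.0152 per 10000 against 0.0258.

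The Kv3 gene Kcnc1, which encodes Kv3.1, a channel of fast-spiking neurons, averaged 0.0104 per 10000 in the Wistar neurons and 0.00129 in the SHR neurons, 87.6% lower, with a log2 difference of -0.01 that turned to 0.04 under the same centring. Kcnc1, Kcna1 and Kcna2 therefore had SHR to Wistar ratios of 0.124, 0.147 and 0.0877, further from 1 than those of the more abundant genes. Large falls were more common among genes with low means. Of the 6226 genes above 0 in both libraries with an average from 0.001 to 0.1 per 10000, 11.5% were lower in SHR by at least 5-fold, a size chosen after these values were seen, as were 3 of the 4 Kv genes in that range. Above that range the share was 0.459%.

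Both Kv beta genes were higher in the SHR neurons. Kcnab1 averaged 0.537 per 10000 in the Wistar neurons and 0.639 in the SHR neurons, 19.0% higher, with a log2 difference of 0.09. It ranked 3220 in Wistar and 2401 in SHR, and 81.1% of the 7621 genes past 0.1 per 10000 had a lower ratio than its 1.19. Kcnab2, encoding Kvβ2, which is the major beta subunit of brain, averaged only 0.0208 per 10000 in the Wistar neurons and 0.0337 in the SHR neurons, 62.0% higher, with a log2 difference of 0.02. Kcnab1 thus supplied 96.3% of the summed beta transcripts in Wistar and 95.0% in SHR.

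Over the 8 genes, 6 were lower and 2 higher in SHR. The background leaned the same way, with 65.6% of the 7621 genes past 0.1 per 10000 lower in SHR and 71.5% of the 6832 genes from 0.001 to 0.1 per 10000. Among the 3 genes past 0.1 per 10000, 1 (Kcna3) was lower by at least 1.5-fold, against 26.5% of all genes there, and none was higher by that fold, against 5.22%. Among the 4 genes in the lower range, 3 were lower by at least 1.5-fold, against 49.1%, and 1 (Kcnab2) was higher by at least 1.5-fold, against 16.1%. The median log2 difference of the 8 genes was -0.01, and that of the 3 genes past 0.1 per 10000 was -0.08 beside -0.05 for all genes past that level. The share of lower genes among the 8 is thus near that of the whole cluster. The split of all genes depends on the scaling, since 2021 were lower and 398 higher by at least 1.5-fold as deposited, but 1344 and 1024 when the SHR means were multiplied by 1.16 to set the median ratio to 1. On that scaling the ratios were 0.516 for Kcna3, 0.884 for Kcna6, 1.38 for Kcnab1 and 1.88 for Kcnab2.

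**Figure D2:**
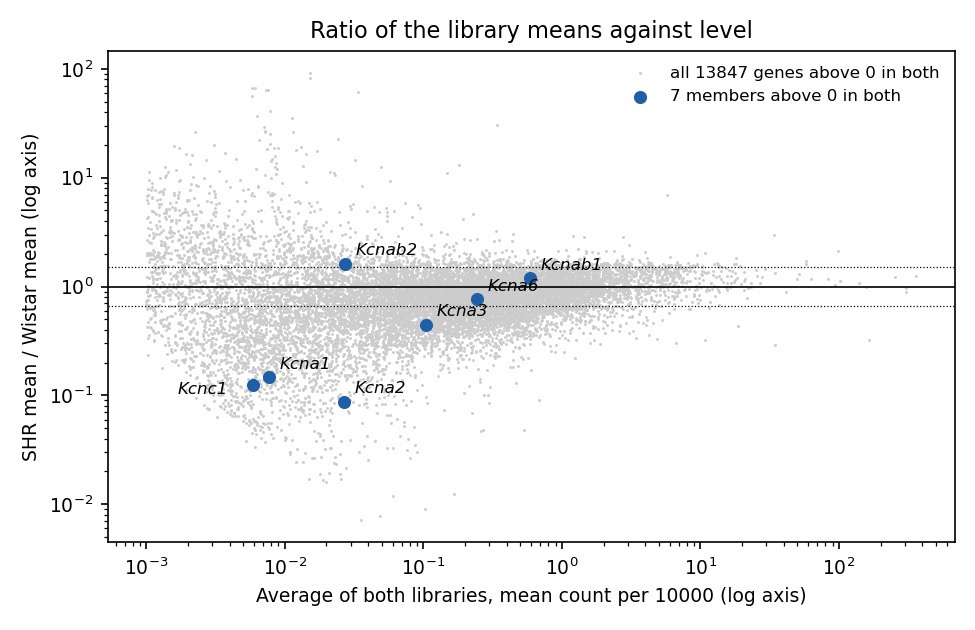
Ratio of the SHR mean to the Wistar mean (log axis) against the average of both libraries in mean count per 10000 (log axis), for the 13847 genes above 0 in both libraries with an average of at least 0.001 per 10000 (grey) and the 7 genes of the Kv set above 0 in both (blue). Dotted lines mark 1.5-fold either way; Kcna1, Kcna2 and Kcnc1 lie at ratios of 0.147, 0.0877 and 0.124 where the grey cloud is wide, and Kcnab1 lies at 1.19 where it is narrow.

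The alpha and beta sums differed between the strains in opposite directions. The summed level of the 5 Kv1 alpha genes came to 0.484 per 10000 for Wistar and to 0.282 for SHR, 41.8% lower. The summed level of the beta genes came to 0.558 per 10000 for Wistar and to 0.673 for SHR, 20.6% higher. The ratio of beta to Kv1 alpha transcripts was 1.15 in Wistar and 2.39 in SHR, and with Kcna4 counted among the alpha genes it was 1.09 and 2.27. Such a ratio does not change when all means of a library are multiplied by the same factor. Another scaling of the single cells could change it and cannot be tried on the means. For single pairs, Kcnab1 over Kcna6 was 1.95 in Wistar and 3.03 in SHR, and Kcnab1 over Kcna3 was 3.70 and 9.89. Within the Kv1 alpha transcripts the share of Kcna6 was 57.0% in Wistar and 74.8% in SHR, that of Kcna3 was 30.0% and 23.0%, and that of Kcna2 was 10.1% and 1.53%. None of these proportions has a replicate check.

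**Figure D3:**
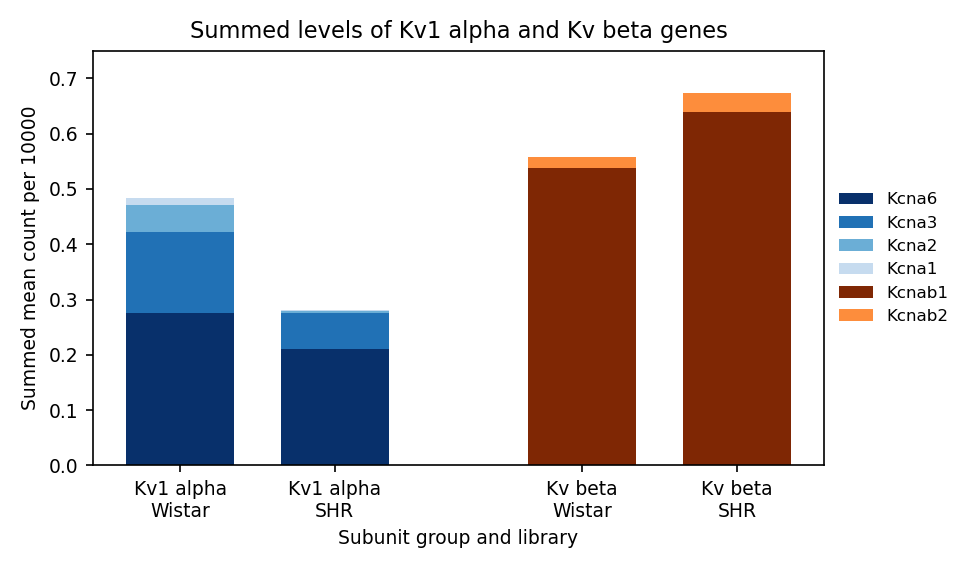
Summed mean count per 10000 of the Kv1 alpha genes (blue shades) and the Kv beta genes (brown and orange) in each library, stacked by gene, with Kcna5 too low to draw and 1 library per bar, so no error bars. The alpha bar stands at 0.484 in Wistar and 0.282 in SHR and the beta bar at 0.558 and 0.673, so the beta bar exceeds the alpha bar by more in SHR.

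The Kv1 alpha genes lie in clusters on the GRCr8 assembly. Kcna5, Kcna1 and Kcna6 are consecutive protein-coding genes on chromosome 4, and Kcna3, Kcna2 and Kcna10 are consecutive on chromosome 2. Within each cluster the levels were far apart. On chromosome 4, Kcna6 reached 0.276 per 10000 in Wistar while its neighbour Kcna1 reached 0.0133 and Kcna5 0.000560. On chromosome 2, Kcna3 stood at 0.145 per 10000 in Wistar, Kcna2 at 0.0490 and Kcna10 at 0 in both libraries. Every gene of the clusters with a mean above 0 was lower in SHR, beside 65.6% to 71.5% of all genes. These are the same Kv1 alpha genes counted above, so this adds no further result. The alpha genes with a promoter rich in CG dinucleotides, Kcna2, Kcna3 and Kcnc1, had SHR to Wistar ratios of 0.0877 to 0.445, and Kcna6, with 3 CG dinucleotides, had a ratio of 0.763. This order did not extend to the other genes, since Kcnab2, with 24 CG dinucleotides, had a ratio of 1.62 and Kcna5, with 3, was listed at 0 in SHR.

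The neuron cluster carried transcripts of other cell types, and the sum of each marker list for them was lower in SHR. The counts of lower markers below stand beside 65.6% to 71.5% of all genes lower in SHR. The neuronal identity of the cluster was clear in its markers, since all 12 sympathetic neuron markers were above 0.1 per 10000 in the average of both libraries and their summed level came to 142.9 per 10000 for Wistar and 151.6 for SHR. Of these markers 7 were lower and 5 higher in SHR, and their median log2 difference was -0.03. Prph was higher in SHR, at 67.6 against 58.0 per 10000, and Snap25 at 23.7 against 17.4, while Ddc was 51.2%, Dbh 37.6% and Slc18a2 32.1% lower. The 10 measured satellite glia and Schwann cell markers were all lower in SHR, with a summed level of 20.7 per 10000 in Wistar and 12.1 in SHR. The summed level of the 10 immune markers came to 1.29 per 10000 for Wistar and 0.424 for SHR, with 8 lower and 1 higher. Of its T cell markers, Cd3e stood at 0 in both libraries and Cd3d at 0.00435 per 10000 in Wistar only. That of the 6 fibroblast markers was 1.84 and 0.353 per 10000, all 6 lower. The 5 measured endothelial markers summed to 0.109 per 10000 in Wistar and 0.0358 in SHR, with all 5 lower. The 6 vascular smooth muscle markers summed to 0.121 and 0.0798, with 4 lower and 2 higher, and the 3 measured erythrocyte markers to 0.0669 and 0.0499, with 1 lower, 1 higher and Alas2 at 0 in both. Kcna1 and Kcna2 are also known from Schwann cells, Kcna3 from immune cells and Kcna5 from muscle, and the part of these cells in the lower Kv1 means was not tested.

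**Figure D4:**
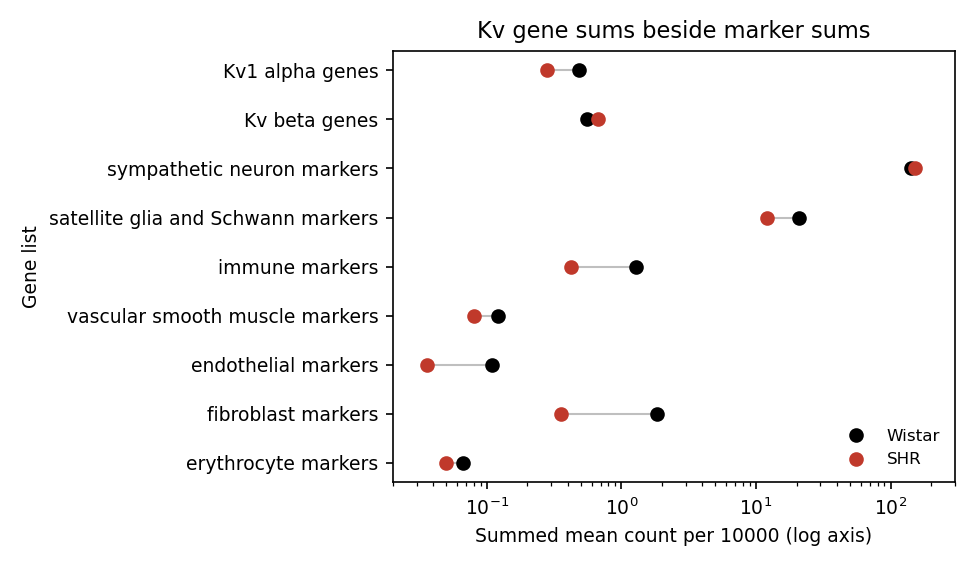
Summed mean count per 10000 (log axis) of the Kv1 alpha genes, the Kv beta genes and the marker lists in the Wistar (black) and SHR (red) neuron cluster, 1 library per strain. The Kv1 alpha sum and the 6 lists of other cell types are lower in SHR, while the Kv beta sum and the sum of the sympathetic neuron markers are higher, the latter with 7 of its 12 genes lower.

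Further genes of the Kv1 to Kv3 families and their electrically silent partners summed to 0.942 per 10000 in Wistar and to 0.482 in SHR. Of 19 such genes 18 were measured, all but Kcnb2, and 9 of the 18 were at 0 in both libraries. Of the other 9, 7 were lower and 2 higher in SHR, beside 65.6% to 71.5% of all genes lower. Of the list, 2 genes passed 0.1 per 10000, both lower by at least 1.5-fold, against 26.5% of all genes there. Kcnc4, a Kv3 gene with fast inactivation, averaged 0.0360 per 10000 in the Wistar neurons and 0.0261 in the SHR neurons. Kcns3, which encodes a silent subunit that modifies Kv2 channels, averaged 0.0218 per 10000 in the Wistar neurons and 0.00846 in the SHR neurons.

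Genes that anchor Kv1 channels summed to 8.08 per 10000 in Wistar and to 7.60 in SHR, most of it from Epb41l3. Of 16 genes for the Kv1 clustering and axonal complex 15 were measured, all but Cntnap2. Of these, 11 were lower and 4 higher in SHR, beside 65.6% to 71.5% of all genes lower. Of the 7 past 0.1 per 10000, 2 were lower by at least 1.5-fold and none higher, against 26.5% and 5.22% of all genes there, and the median log2 difference was -0.07 beside -0.05. These shares are near those of all genes. Epb41l3, encoding a membrane skeleton protein that links membrane proteins to actin, averaged 5.44 per 10000 in the Wistar neurons and 5.37 in the SHR neurons. Dlg4, which encodes PSD-95, a scaffold that binds the C terminus of Kv1 subunits, averaged 0.738 per 10000 in the Wistar neurons and 0.970 in the SHR neurons, 31.5% higher. Lgi3, a secreted ligand of the Adam22 family, stood at 0.560 and 0.434 per 10000. Dlg2, encoding PSD-93, stood at 0.277 per 10000 in Wistar and 0.215 in SHR, which is close to Kcna6 in both libraries.

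The genes nearest to each abundant Kv gene were taken by distance in the plane of the 2 deposited log values. For Kcna3 they were Brf2, Usp53 and Gk, for Kcna6 Gpr89b, Dlg2 and Supv3l1, and for Kcnab1 Hpf1, Micu3 and Hmox2, at distances of 0.000297 to 0.00776 natural log units. Within 0.01 natural log units there were 30 genes for Kcna3, 28 for Kcna6 and 3 for Kcnab1. Likeness over 2 libraries is a description of level only.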

How the data were processed

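Stellate ganglia cells were sequenced with 10x Genomics single cell 3′ chemistry. According to the submitters' processing notes, the authors used Cell Ranger 3.0.2, Seurat 3 and the build Rnor_6.0. The authors deposited 1 natural log value per gene and library, taken over the sympathetic neurons after each cell was scaled to 10000 counts, averaged, and increased by 1. Without the log and the added 1, the 25399 values of a library sum to 10000. Cell filters, doublet treatment, neuron numbers and depth are not given in the sources used here, so counting error and detection limits cannot be stated.

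Names on 4 repeated rows were left out. Differences are those of the deposited logs, divided by the natural log of 2, and ratios are of the means converted back. The call rule was a fold of 1.5 among genes with an average of at least 0.1 per 10000 and above 0 in both libraries. With 1 library per strain no test was made. Python 3.11.15, NumPy 2.4.6 and pandas 2.3.3 were used, and the counting of genes past a fold was tested on simulated data. The genes described and the lists were chosen with earlier results of these data known. The rule for naming genes took the 8 Kv genes, the genes of highest average in each list, up to 4, and the 3 nearest genes in the log values, and other names, marker genes and Kcna10 among them, were chosen after their values were seen. A few genes that the rule would name are left out of the text, and Cntnap2 and Kcnb2, which had no row, are named only as missing. Promoter windows come from RefSeq on GRCr8, matched by symbol, and the order of neighbouring genes was taken from the same assembly. The authors' own comparison of the strains, with fold changes, p-values and shares of cells, was not used. Alternatives were other pseudocounts, scalings, minimums and folds.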

Additional observations from a re-analysis of the deposited data

How the results depend on the processing

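No paired analysis was possible because there is a single library for either strain. With pseudocounts of 0.1, 0.01 and 10 in place of 1, the median log2 difference of the 8 genes, -0.0147, became -0.139, -0.614 and -0.00148, by the construction of the pseudocount. Setting the median log2 difference of all genes past 0.1 per 10000 to 0 adds 0.0523 to every gene by construction, whatever its level. This turned 3 genes with differences near 0 to the other sign, Kcna1 at 0.0360, Kcna5 at 0.0515 and Kcnc1 at 0.0392, left 3 of the 8 genes lower, and made the median 0.0376. Setting the median ratio to 1 instead, a scaling chosen after the data were examined that multiplies the SHR means by 1.16, left 6 of the 8 genes lower and turned none. The other scalings turned none either. Among genes with an average of at least 0.1 and 0.01 per 10000, 2 of 3 and 3 of 5 were lower, with medians of -0.0758 and -0.0628, because fewer genes enter. Of all genes, 2021 were lower and 398 higher by at least 1.5-fold. These counts were 861 and 58 at a fold of 2, 3974 and 809 at a minimum of 0.01 per 10000, 195 and 172 at a minimum of 1 per 10000, and 1344 and 1024 with the median ratio at 1. Depth is unknown, and the genes below 0.1 per 10000 rest on the fewest counts.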

Other observations

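Genes that carry, retain or modify Kv channels were measured in the same neurons, and all 23 listed had a row. In SHR 13 were lower and 7 higher, beside 65.6% to 71.5% of all genes lower, and 3 were at 0 in both libraries. Of the 13 past 0.1 per 10000, 4 were lower and 1 higher by at least 1.5-fold, against 26.5% and 5.22% of all genes there, with a median log2 difference of -0.09, beside -0.05 for all genes past that level. Vapa, which encodes an endoplasmic reticulum protein that tethers Kv2 clusters to the plasma membrane, averaged 3.86 per 10000 in the Wistar neurons and 4.49 in the SHR neurons. Ank3, encoding ankyrin G, the organiser of the axon initial segment, averaged 3.15 per 10000 in the Wistar neurons and 1.79 in the SHR neurons, 43.2% lower, with a log2 difference of -0.57. With 1 library per strain none of these differences was tested.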
